A study of Mus musculus with 30 samples.

Results

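Matrix metalloproteinases (MMP), their ADAMTS relatives and the tissue inhibitors of metalloproteinases (TIMP) were followed through the differentiation of mouse brown preadipocytes with and without the glucocorticoid receptor. Members were taken by symbol alone, as every gene named Mmp, Adamts or Timp followed by a number, without ADAMTS-like genes, and each gene was read from its RefSeq accession with the most reads. The rule found 45 of the 23109 genes in the tables, of which 22 were MMP, 19 ADAMTS and 4 TIMP genes. Mmp27, which also meets the rule, was not analysed here.

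The cells came from the interscapular brown depot of newborn pups (strain C57BL/6J) homozygous for a floxed glucocorticoid receptor gene (GR-flox/flox) and were immortalised with SV40T. Retroviral Cre gave receptor-deleted cells, called Cre here, and the empty retrovirus gave the control cells, called Vec, so both groups carry the floxed alleles, the viral T antigen and a retrovirus. RNA was sequenced from both at D0 (confluent, before induction), 4h, D2 and D7, which gives 8 libraries and 1 library per genotype and time. Adipogenesis was induced in both genotypes with 2 µg/ml dexamethasone (a synthetic glucocorticoid), 0.5 mM IBMX (a phosphodiesterase inhibitor that raises cyclic AMP), 0.125 mM indomethacin, 1 nM T3 and 0.02 µM insulin. The labels do not state the medium used after the first 4 hours, and 22 ChIP libraries of the series were not used here.

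MMPs and ADAMTS enzymes are zinc proteases of the extracellular matrix and are made as inactive precursors. MMPs cut collagens, gelatin and many cell-surface proteins, while ADAMTS enzymes trim procollagens, cut the large proteoglycans aggrecan and versican, or bind fibrillin microfibrils. TIMPs occupy the active site of MMPs, and Timp3 also restrains ADAMTS enzymes. In fat tissue the membrane-bound protease Mmp14 is known for opening the pericellular collagen around growing adipocytes.

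Library depth lay between 7706699 reads in Cre 4h and 28864140 reads in Vec D2, and both 4h libraries were the shallowest of their genotype. Nr3c1, which encodes the receptor, was read at 4.04 to 8.07 RPKM (reads scaled to transcript length and library size) in the Cre libraries, against 12.9 to 32.1 RPKM in the Vec libraries, and the residual reads cannot be assigned to exons in these tables. The summed level of 8 adipocyte genes at D0, 4h, D2 and D7 was 51.0, 80.3, 2158 and 1744 RPKM in Cre cells, against 48.7, 94.2, 2415 and 4828 RPKM in Vec cells. That of 9 preadipocyte or fibroblast genes was 3396, 3659, 1972 and 3807 RPKM in Cre cells, against 3250, 3939, 880.3 and 1980 RPKM in Vec cells. Most of that sum came from Col1a1, Col1a2 and Col3a1, at 1542, 1016 and 494 RPKM in Cre D0. Macrophage genes, a source of secreted proteases in fat tissue, summed to at most 3.10 RPKM in any Cre library and 2.60 RPKM in any Vec library, and 5 of the 7 in the tables stayed under 1 RPKM everywhere. In bulk RNA, fewer cells of a type and less RNA per cell cannot be told apart.

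Of the 45 members, 24 reached at least 1 RPKM in at least 2 libraries and entered the tests: 9 MMP, 12 ADAMTS and 3 TIMP genes. Another 16 were read below that limit and 5 had no read in any library (Mmp1a, Mmp1b, Mmp10, Mmp12 and Mmp20). The unread and barely read genes include the classic secreted collagenases and stromelysins. Mmp13, a collagenase, had at most 3 reads in a library, Mmp8, the neutrophil collagenase, 2, and Mmp7, matrilysin, 1. Mmp3, stromelysin 1, reached 19 reads in Vec D7, which is 0.696 RPKM, against 11 reads in Cre D7. Mmp9, the inducible gelatinase, had at most 40 reads, in Cre D7, or 0.516 RPKM. The membrane-anchored Mmp17 and Mmp25 peaked at 85 and 7 reads, and Mmp21 at 5. Among the ADAMTS genes the peak was 6 reads for Adamts13, the protease of von Willebrand factor, 74 for Adamts17, 15 for Adamts18, 71 for Adamts19, 17 for Adamts20, 7 for Adamts3 and 3 for Adamts8. Adamts17 and Adamts19 both peaked in Cre D2, at 0.463 and 0.574 RPKM. Timp4, an inhibitor enriched in fat tissue, had 4 reads in Cre D7 and none in the other Cre libraries, against 22 reads in Vec D7 and 3 in Vec D2. A count of 3 reads at the median transcript length corresponds to 0.041 to 0.154 RPKM across the libraries, so levels under that range were not measurable at this depth.

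Untested members of 1 gene cluster differed from tested members in the sequence around their starts. For that reason 3 unread or barely read promoters of the cluster are printed beside 4 of well-read genes. Of the 21 untested members, 9 (Mmp13, Mmp12, Mmp1b, Mmp3, Mmp1a, Mmp10, Mmp8, Mmp20 and Mmp7) lie in 1 cluster on chromosome 9, with 52 reads over all 8 libraries together. RefSeq promoters (GRCm38.p6, 250 bases before to 50 after the start) were at hand for 31 members, 14 tested and 17 untested. The letters TGACTCA or TGAGTCA, the AP-1 motif, stood in the promoters of 7 members, namely Mmp1a, Mmp1b, Mmp3, Mmp7, Mmp10, Mmp12 and Mmp13, all of that cluster, and in none of the 14 tested members. It is held by 5.2% of all 32851 RefSeq promoters. Neighbouring genes of 1 cluster need not be independent of each other, and the difference was not tested. The TATA box letters, TATAAA or TTTATA, stood anywhere in the promoter windows of 10 of the 17 untested members, all but Mmp21 in the cluster. They stood in 1 of the 14 tested ones, Adamts1, against 13.6% of all promoters. In Mmp12 the letters lay after the start and in Mmp8 across it. The GC box GGGCGG or CCGCCC showed the other pattern, in 5 of 17 untested and 13 of 14 tested members, against 35.7% of all promoters. Those 5 untested members, Adamts3, Adamts13, Adamts18, Adamts20 and Mmp25, lie outside the cluster. Median GC content was 46.7% in untested members, 66.0% in tested members and 52.7% over all promoters. It ran from 37.7% to 52.0% in promoters of the cluster and from 53.3% to 77.3% in those of the other untested members. The palindromic motif of the glucocorticoid response element was in none of the 34 member promoters and in 0.475% of all. The C/EBP letters TTGCNNAA or TTNNGCAA were in 5 untested members, all of the cluster, and in 10.8% of all promoters. Both strands were searched, and a match is a description of letters, not of a bound site. In the sequences that follow, bases directly before the start are given 5′ to 3′ on the gene's strand. Capitals mark the AP-1, TATA and GC box letters and, in Adamts1 and Adamts9, TGACG, a core stretch of the cyclic AMP response element, which 5 of the 34 member promoters and 20.8% of all promoters hold on either strand. The full palindrome of that element was in 0 of the 34 member promoters and in 1.79% of all. The 3 cluster promoters each carry AP-1 letters and the letters TATAAA, on chr9:7272394-7272513 (Mmp13), chr9:7445702-7445821 (Mmp3) and chr9:7502222-7502341 (Mmp10), plus strand. TATAAA begins 16, 7 and 29 bases before the start in Mmp13, Mmp3 and Mmp10.
Mmp13: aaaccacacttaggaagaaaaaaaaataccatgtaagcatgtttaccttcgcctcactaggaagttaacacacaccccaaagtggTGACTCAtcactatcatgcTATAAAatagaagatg
Mmp3: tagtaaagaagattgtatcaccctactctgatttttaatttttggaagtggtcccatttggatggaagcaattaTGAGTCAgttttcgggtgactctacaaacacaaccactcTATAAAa
Mmp10: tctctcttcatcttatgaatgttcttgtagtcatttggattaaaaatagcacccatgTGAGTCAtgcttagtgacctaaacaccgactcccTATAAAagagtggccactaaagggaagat
The ADAMTS genes with the highest level in Vec 4h, Adamts1 (chr16:85803114-85803363, minus strand) and Adamts9 (chr6:92943535-92943784, minus strand), carry that stretch and GC boxes. The stretch also stood in Adamts3, Adamts12 and Timp1, and not in Adamts2, the next highest ADAMTS gene in Vec 4h at 36.3 RPKM. No promoter was at hand for Adamts15.
Adamts1: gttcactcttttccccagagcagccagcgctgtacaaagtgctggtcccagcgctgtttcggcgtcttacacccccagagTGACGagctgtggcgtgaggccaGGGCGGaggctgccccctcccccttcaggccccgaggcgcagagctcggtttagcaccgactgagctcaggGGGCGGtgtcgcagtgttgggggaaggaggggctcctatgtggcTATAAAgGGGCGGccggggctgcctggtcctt
Adamts9: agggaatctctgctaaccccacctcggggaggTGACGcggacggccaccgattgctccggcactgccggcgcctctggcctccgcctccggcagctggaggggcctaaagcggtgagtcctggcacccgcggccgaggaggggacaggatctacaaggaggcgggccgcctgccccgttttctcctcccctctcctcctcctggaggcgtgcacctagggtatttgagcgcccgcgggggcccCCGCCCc
The promoters of Mmp14 (chr14:54431448-54431597, plus strand) and Timp3 (chr10:86300262-86300411, plus strand), an abundant protease and an abundant inhibitor, carry GC boxes and no TATAAA.
Mmp14: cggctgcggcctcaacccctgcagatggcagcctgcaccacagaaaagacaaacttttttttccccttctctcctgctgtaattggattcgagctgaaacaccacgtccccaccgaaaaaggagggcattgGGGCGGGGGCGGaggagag
Timp3: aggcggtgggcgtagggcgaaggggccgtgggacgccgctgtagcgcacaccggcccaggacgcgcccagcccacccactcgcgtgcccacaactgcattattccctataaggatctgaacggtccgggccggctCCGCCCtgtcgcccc

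Before induction the members' RNA was dominated by a few genes: at D0 Mmp14 and Timp2 were each near 250 RPKM, and Mmp2, Timp3, Adamts1, Adamts5 and Timp1 followed. These are levels per transcript length, so genes can be set side by side. Summed over the family, MMP genes at D0, 4h, D2 and D7 stood at 466, 546, 420 and 399.5 RPKM in Cre cells, against 462, 464, 295 and 243 RPKM in Vec cells. ADAMTS genes summed to 216, 192, 164 and 246 RPKM in Cre cells, against 217, 389, 214 and 187 RPKM in Vec cells. TIMP genes summed to 429, 563, 224 and 482 RPKM in Cre cells, against 438, 479, 111 and 290 RPKM in Vec cells. Inhibitor RNA was thus lowest at D2 in both genotypes, and the ADAMTS sum was highest at 4h in Vec cells and at D7 in Cre cells.

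**Figure D1:**
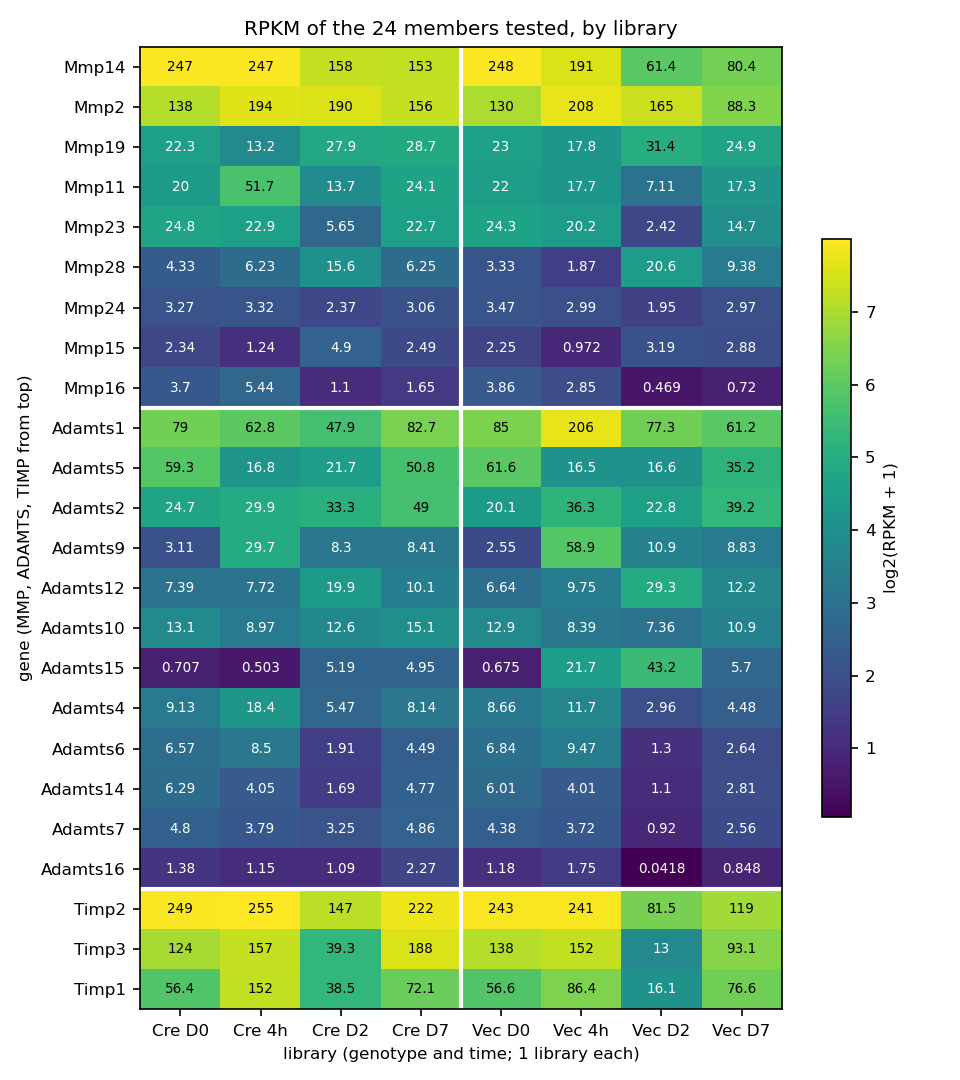
Level of the 24 tested members as log2(RPKM + 1) in each of the 8 RNA libraries, Cre libraries left and Vec libraries right, each in the order D0, 4h, D2 and D7. Timp2 and Mmp14 are the brightest at D0 in both genotypes, and Adamts15 is bright in Vec 4h and Vec D2 at 21.7 and 43.2 RPKM but not in Cre 4h at 0.503 RPKM.

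Changes over time were tested in 1 model over the 8 libraries, with a term for time and a term for genotype (edgeR quasi-likelihood test, Benjamini-Hochberg adjustment over all 12581 genes tested, threshold 0.05). With 1 library per genotype and time the error of that model is how far the 2 genotypes depart from a common time course, so its p-values do not measure the spread between cultures, and members whose course depends on genotype are penalised. Values below are fitted log2 changes with their standard error (SE).

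At 4h Adamts9 and Adamts4 rose and Adamts5 fell, and among MMPs Mmp15 fell. These 4 are 16.7% of the 24 tested members, against 25.3% of all genes tested (12.2% higher and 13.1% lower), and the members' median change was 0.22 against -0.00127 over all genes. Of the 12 ADAMTS genes 3 passed, which is 25%, close to the share over all genes, and the proteoglycanases Adamts1 and Adamts15 did not pass. Adamts9, a versican-cleaving protease, stood at D0, 4h, D2 and D7 at 3.11, 29.7, 8.30 and 8.41 RPKM in Cre cells, against 2.55, 58.9, 10.9 and 8.83 RPKM in Vec cells. Its peak was at 4h in both genotypes, and it rose by 4.01 (SE 0.35, adjusted p = 0.0063). Adamts5, the main aggrecanase of mouse cartilage, stood at 59.3, 16.8, 21.7 and 50.8 RPKM in Cre cells, against 61.6, 16.5, 16.6 and 35.2 RPKM in Vec cells. It fell by 1.76 at 4h (SE 0.20, adjusted p = 0.0071), and the 4h levels of the genotypes were close to each other. Its chromosomal neighbour on chromosome 16, Adamts1, with no coding gene between them, went a separate way, described with the genotypes further on. Adamts4, another aggrecanase, stood at 9.13, 18.4, 5.47 and 8.14 RPKM in Cre cells, against 8.66, 11.7, 2.96 and 4.48 RPKM in Vec cells. It rose by 0.80 at 4h (SE 0.22, adjusted p = 0.0453), and its value is uncertain where another gene overlaps it, because the strand of counting is not given. Mmp15, a membrane-type MMP, stood at 2.34, 1.24, 4.90 and 2.49 RPKM in Cre cells, against 2.25, 0.972, 3.19 and 2.88 RPKM in Vec cells. It fell by 0.96 at 4h (SE 0.26, adjusted p = 0.0460), with 41 reads in Cre 4h and 51 in Vec 4h. The calls at 4h, though not their direction, depended on single libraries: without Vec D0 none of the 4 passed, and no gene of all 12581 did (lowest adjusted p 0.0667). The log2 changes without Vec D0 were 3.62 for Adamts9, 1.16 for Adamts4, -1.58 for Adamts5 and -0.88 for Mmp15. Without Vec 4h 1 of the 4 passed, Adamts9, and without Cre D0 or without Cre 4h 2 passed, Adamts5 and Adamts9. Without Cre D7 or without Vec D7 Adamts4 did not pass.

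At D2 more members fell than rose, 12 of the 24 tested against 4. That is 66.7% of the members called, against 38.7% of all genes tested (17.7% higher and 21.0% lower), with a median change of -1.16 in the members against 0.016 over all genes. All 3 tested inhibitors fell. Timp3, which binds matrix and also restrains ADAMTS enzymes, stood at D0, 4h, D2 and D7 at 124, 157, 39.3 and 188 RPKM in Cre cells, against 138, 152, 13.0 and 93.1 RPKM in Vec cells. It fell by 2.51 at D2 (SE 0.48, adjusted p = 0.0123). Timp2, which takes part in the activation of Mmp2 by Mmp14, stood at 249, 255, 147 and 222 RPKM in Cre cells, against 243, 241, 81.5 and 119 RPKM in Vec cells. It fell by 1.19 at D2 (SE 0.29, adjusted p = 0.0235). Timp1, the inducible secreted inhibitor, stood at 56.4, 152, 38.5 and 72.1 RPKM in Cre cells, against 56.6, 86.4, 16.1 and 76.6 RPKM in Vec cells, and fell by 1.16 at D2 (SE 0.36, adjusted p = 0.0466). For each of the inhibitors D2 was the lowest of the 4 times in both genotypes, and the lower of the D2 values was that of Vec cells. Timp1, Timp2 and Timp3 overlap Syn1, Cep295nl and Syn3, which had 526, 591 and 413 reads over all libraries. The 9 preadipocyte or fibroblast genes, whose sum is mostly collagen RNA, had their lowest sum at D2 too. By the same test 4 of the 9 were lower at D2 and 0 higher. Dlk1 was above D0 at D2 in both genotypes, at 91.2 against 58.9 RPKM in Cre cells and 69.3 against 53.2 RPKM in Vec cells. Col3a1, Lum and Dcn were above D0 in Cre cells and below it in Vec cells, and the rest were below it in both. The part of these genes in the fall was not tested.

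The membrane-bound Mmp14, Mmp16, Mmp23 and Mmp24 and the secreted Mmp11 also fell at D2, and Mmp15 and Mmp28 rose. Mmp14 stood at D0, 4h, D2 and D7 at 247, 247, 158 and 153 RPKM in Cre cells, against 248, 191, 61.4 and 80.4 RPKM in Vec cells, and fell by 1.34 at D2 (SE 0.35, adjusted p = 0.0302). Mmp23, a small membrane protease without the hemopexin domain, stood at 24.8, 22.9, 5.65 and 22.7 RPKM in Cre cells, against 24.3, 20.2, 2.42 and 14.7 RPKM in Vec cells. It fell by 2.71 (SE 0.32, adjusted p = 0.0039), the steepest fall of any tested member at D2, and it overlaps Mib2. Mmp16, a further membrane-type MMP, stood at 3.70, 5.44, 1.10 and 1.65 RPKM in Cre cells, against 3.86, 2.85, 0.469 and 0.720 RPKM in Vec cells, and fell by 2.43 (SE 0.35, adjusted p = 0.0059). Mmp24, also membrane-type, stood between 2.37 and 3.32 RPKM in Cre cells, against 1.95 to 3.47 RPKM in Vec cells, lowest at D2 in both. It fell by 0.67 (SE 0.16, adjusted p = 0.0229). Mmp11, stromelysin 3, which furin activates inside the cell, fell by 1.15 (SE 0.36, adjusted p = 0.0499), at the edge of the threshold. Mmp28, epilysin, stood at 4.33, 6.23, 15.6 and 6.25 RPKM in Cre cells, against 3.33, 1.87, 20.6 and 9.38 RPKM in Vec cells. It rose by 2.23 (SE 0.49, adjusted p = 0.0188) with its peak at D2 in both genotypes, and it overlaps 1700020L24Rik. Mmp15 rose by 0.78 at D2 (SE 0.24, adjusted p = 0.0457), opposite to its fall at 4h. The 2 remaining tested MMPs did not pass at any time. Mmp2, gelatinase A, stood at 138, 194, 189.6 and 156 RPKM in Cre cells, against 130.2, 208, 165 and 88.3 RPKM in Vec cells. Mmp19, which overlaps Tmem198b, stayed between 13.2 and 28.7 RPKM in Cre cells, against 17.8 to 31.4 RPKM in Vec cells, lowest at 4h in both.

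Among ADAMTS genes 2 of 12 were higher at D2 and 4 lower, or 16.7% and 33.3%, against 17.7% and 21.0% of all genes. The higher share was thus close to that over all genes. Adamts12, a protease of cartilage oligomeric matrix protein, stood at D0, 4h, D2 and D7 at 7.39, 7.72, 19.9 and 10.1 RPKM in Cre cells, against 6.64, 9.75, 29.3 and 12.2 RPKM in Vec cells. It rose by 1.75 (SE 0.19, adjusted p = 0.0033), and Adamts9 was still higher than at D0, by 1.70 (SE 0.32, adjusted p = 0.0119). Adamts14, a procollagen N-proteinase, stood at 6.29, 4.05, 1.69 and 4.77 RPKM in Cre cells, against 6.01, 4.01, 1.10 and 2.81 RPKM in Vec cells, and fell by 2.19 (SE 0.25, adjusted p = 0.0035). Its relative Adamts2, the major procollagen N-proteinase of skin, was at 33.3 RPKM in Cre D2, against 22.8 RPKM in Vec D2, and did not pass at D2. Adamts6, a relative of Adamts10, stood at 6.57, 8.50, 1.91 and 4.49 RPKM in Cre cells, against 6.84, 9.47, 1.30 and 2.64 RPKM in Vec cells, and fell by 2.11 (SE 0.28, adjusted p = 0.0047). Adamts10, which acts on fibrillin microfibrils, did not pass at any time, with 13.1, 8.97, 12.6 and 15.1 RPKM in Cre cells, against 12.9, 8.39, 7.36 and 10.9 RPKM in Vec cells. Adamts5 remained low, by 1.70 (SE 0.19, adjusted p = 0.0036), and Adamts4 fell by 1.18 (SE 0.22, adjusted p = 0.0117), on the other side of its 4h rise. Leaving out single libraries cut the D2 count, to 6 members without Vec D0 and 7 without Vec D2, and to between 12 and 15 of the 16 without any one of the others. Adamts5, Adamts6, Adamts12, Adamts14, Mmp16 and Mmp23 passed without each of the 8 libraries, with adjusted p up to 0.0447. The remaining 10 did not pass without Vec D0, where 1018 of all genes did. Of these, Mmp11, Mmp15 and Timp1 passed without 3 of the 8 libraries left out in turn, Mmp24 and Mmp28 without 5, and the others without 6.

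At D7 3 members passed. Adamts2 and Adamts9 were higher than at D0 and Mmp16 lower, which is 12.5% of tested members, against 8.09% of all genes (5.68% higher and 2.42% lower), and the median was -0.016 in members and 0.0064 over all genes. Adamts2 stood at D0, 4h, D2 and D7 at 24.7, 29.9, 33.3 and 49.0 RPKM in Cre cells, against 20.1, 36.3, 22.8 and 39.2 RPKM in Vec cells, with its highest level at D7 in both. It rose by 1.07 (SE 0.23, adjusted p = 0.0494), Adamts9 by 1.69 (SE 0.32, adjusted p = 0.0379), and Mmp16 fell by 1.70 (SE 0.35, adjusted p = 0.0435). None of the 3 passed without any one D0, D2 or D7 library of either genotype (adjusted p up to 0.344), and without Vec D0 no gene at all did. Without Cre 4h or without Vec 4h Adamts2 and Adamts9 passed and Mmp16 did not. The call of Adamts2 also ended under median of ratios scaling (adjusted p = 0.0509), with a filter of 5 RPKM (0.0556), with the reads of all accessions summed (0.0513) and without the genotype term (0.0566).

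**Figure D2:**
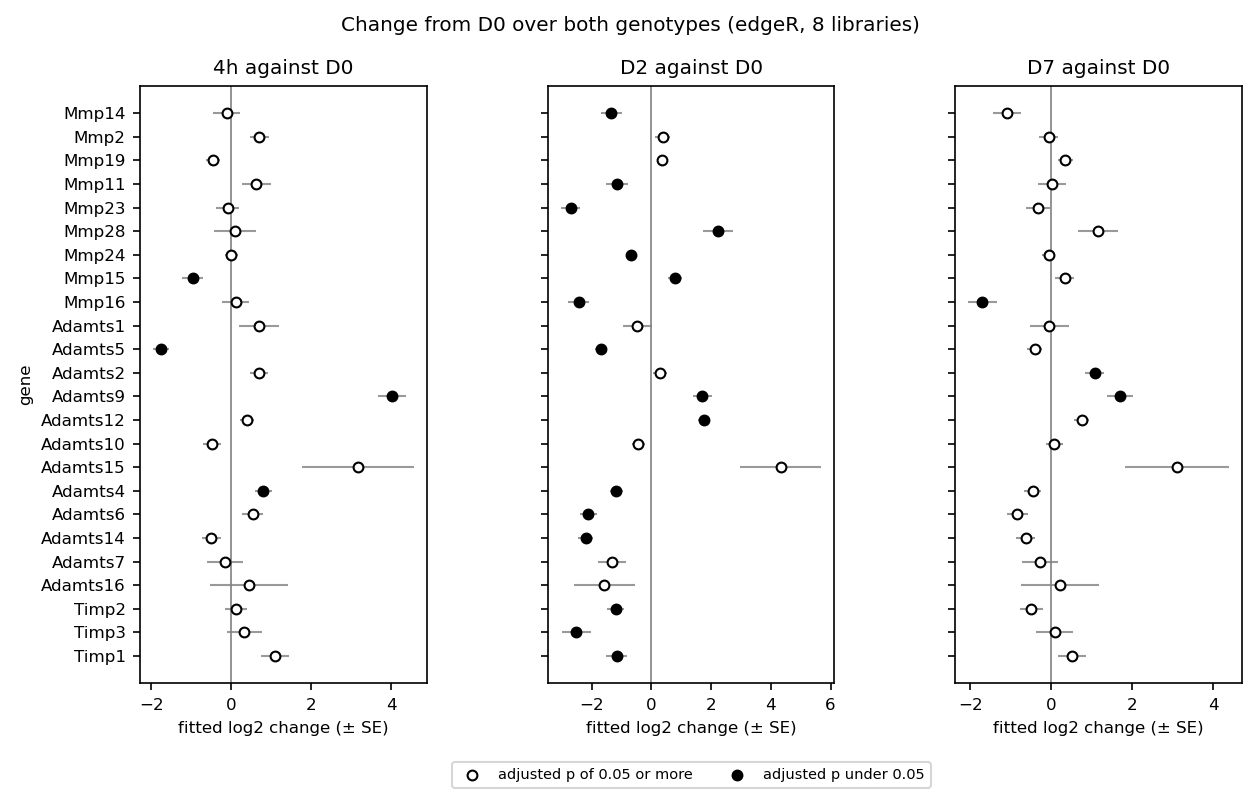
Fitted log2 change against D0 of the 24 tested members at 4h, D2 and D7 from the model with time and genotype terms, with standard errors. Filled points passed an adjusted p of 0.05, and at D2 12 filled points lie below 0 and 4 above it.

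Between genotypes, the same model called no member Cre against Vec over all times, and no gene of the 12581 either (0%). At an unadjusted p under 0.05, 4 of the 24 members and 11.9% of all genes stood apart, and DESeq2 called 0 members and 19 genes. That test asks for 1 difference shared by all 4 times. At single times there is 1 library per genotype and no replicate, so differences were described by size: log2(RPKM + 1) at least 1 apart, Cre minus Vec, among genes with at least 1 RPKM in either library. Ratios are given with 95% intervals that cover counting error only.

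At D0 none of 23 members was past the limit, against 0.433% of all genes, and the differences ran from -0.15 for Timp3 to 0.30 for Mmp28. Every later contrast between genotypes therefore starts from D0 levels of members that lay within that range.

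At 4h 4 of 24 members were past it, Mmp11 and Mmp28 higher in Cre cells and Adamts1 and Adamts15 lower, which is 16.7%, against 4.24% of all genes (1.65% higher and 2.59% lower). Adamts15, a proteoglycanase, had 0.707, 0.503, 5.19 and 4.95 RPKM in Cre cells at D0, 4h, D2 and D7, against 0.675, 21.7, 43.2 and 5.70 RPKM in Vec cells. The gene was thus near its D0 level at 4h in Cre cells and far above it in Vec cells, and the genotypes were close again at D7. At 4h its level was 43.0 times lower in Cre cells (interval 28.6 to 68.1), on 23 reads in Cre cells and 1575 in Vec cells, and at D2 it was 8.32 times lower (7.74 to 8.96). Its time effect did not pass in the model, with log2 changes of 3.17, 4.32 and 3.10 at 4h, D2 and D7 (adjusted p = 0.145, 0.0512 and 0.171), since the gap between genotypes counts there as error. Its neighbour Adamts8, with no coding gene between them, was near 0 throughout. Adamts1, an inducible proteoglycanase, had 79.0, 62.8, 47.9 and 82.7 RPKM in Cre cells, against 85.05, 206, 77.3 and 61.2 RPKM in Vec cells. Its 4h level was 3.28 times lower in Cre cells (3.14 to 3.43): it was above D0 at 4h in Vec cells and below D0 in Cre cells. Adamts9 lay just inside the limit, with a log2 difference of -0.96 and a level 1.98 times lower in Cre cells (1.87 to 2.11). It was above its D0 level at 4h in both genotypes. In the other direction, Mmp11 had 20.02, 51.7, 13.7 and 24.1 RPKM in Cre cells, against 21.95, 17.7, 7.11 and 17.3 RPKM in Vec cells. At 4h it was 2.92 times higher in Cre cells (2.62 to 3.27). Mmp28 was 3.33 times higher at 4h (2.38 to 4.71), on 111 reads in Cre cells and 53 in Vec cells. Timp1 was 1.76 times higher (1.61 to 1.92) and stayed inside the limit. With a pseudocount of 5 in place of 1 the difference of Mmp28 at 4h was 0.71 and inside the limit. Of the 24 members 15 were above 0 at 4h, against 66.1% of all genes, and their median difference was 0.03, against 0.11 over all genes. Normalization by TMM, which compares libraries over the bulk of their genes, moved Vec 4h up by 0.12. With TMM scaling 5 members were past the limit, the same 4 and Adamts9.

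**Figure D3:**
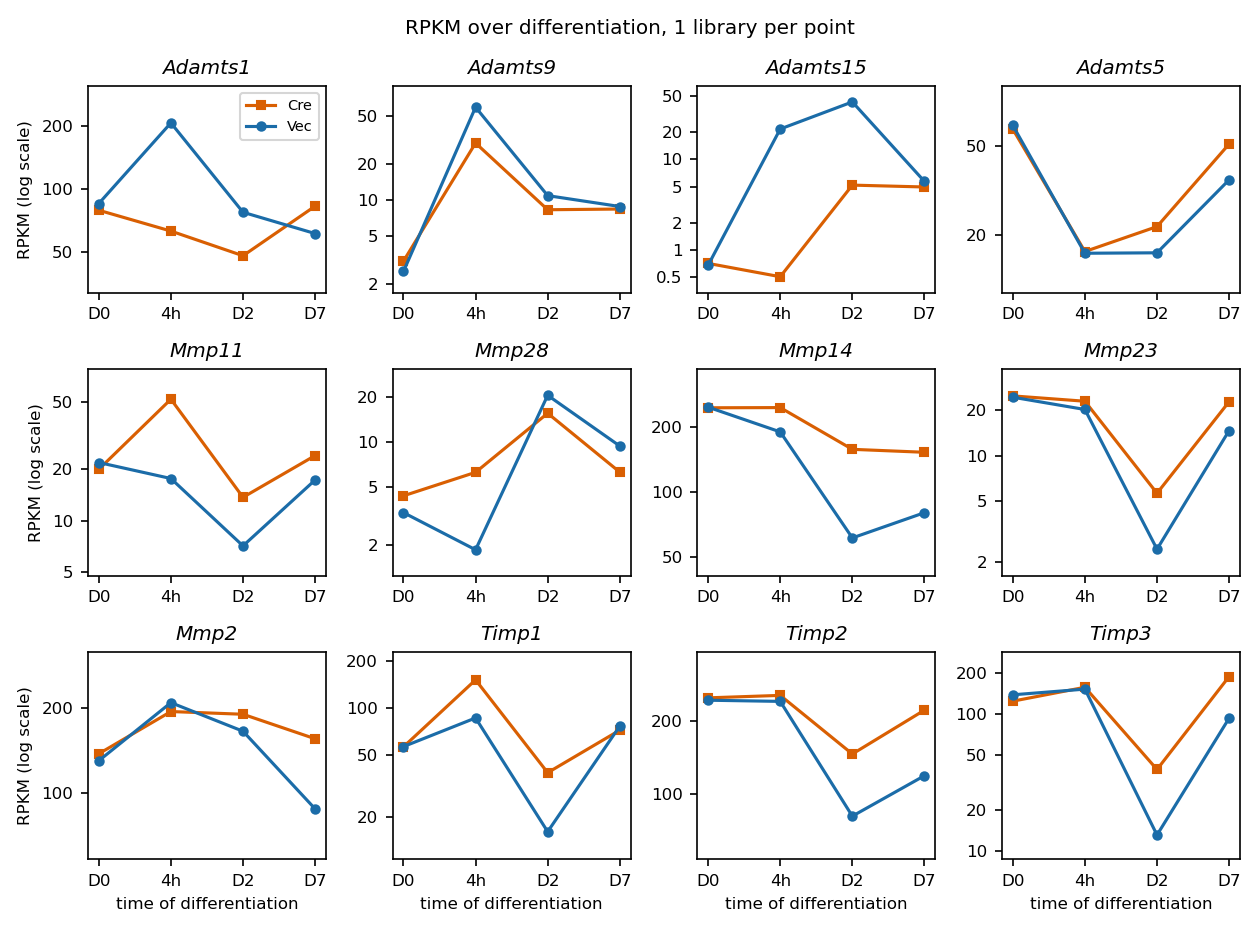
RPKM on a log axis at D0, 4h, D2 and D7 (equally spaced) for selected members, with Cre cells first in the legend and Vec cells second. Adamts15 stays at 0.503 RPKM in Cre 4h against 21.7 RPKM in Vec 4h, and Timp3 has its lowest point at D2 in both genotypes, at 39.3 RPKM in Cre cells and 13.0 RPKM in Vec cells.

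At D2 6 of 24 members were past the limit, 5 higher and 1 lower in Cre cells, against 4.09% of all genes (2.55% higher and 1.54% lower). The higher ones were Timp3 (3.01 times, 2.85 to 3.18), Mmp14 (2.58 times, 2.49 to 2.67), Timp1 (2.39 times, 2.13 to 2.69), Adamts7 and Adamts16. Adamts7, a protease of cartilage oligomeric matrix protein, had 4.80, 3.79, 3.25 and 4.86 RPKM in Cre cells, against 4.38, 3.72, 0.920 and 2.56 RPKM in Vec cells, so its dip at D2 was deeper in Vec cells. Adamts16 had 1.38, 1.15, 1.09 and 2.27 RPKM in Cre cells, against 1.18, 1.75, 0.0418 and 0.848 RPKM in Vec cells, where D2 had 6 reads; its D2 ratio of 26.1 carries an interval of 11.7 to 72.4. Adamts15 was the lower one. With TMM scaling 5 of the 6 were past the limit, all but Adamts16, and with a pseudocount of 5 Adamts7 and Adamts16 were inside it, at 0.48 and 0.27. The members' median difference was 0.51, against -0.04 over all genes, and 18 of 24 were above 0, against 44.0% of all genes. Timp2 and Mmp23 lay inside the limit at 1.80 times (1.75 to 1.85) and 2.34 times (1.84 to 3.00), both higher in Cre cells. Of the 9 preadipocyte or fibroblast genes 4 were past the same limit and higher in Cre cells, and their part in the difference was not tested.

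At D7 the only member past the limit was Timp3, 2.02 times higher in Cre cells (1.96 to 2.07), against 4.50% of all genes (1.39% higher and 3.12% lower). It had a log2 difference of 1.00, on the limit itself, and with RPKM rescaled by TMM, or with a pseudocount of 5 (0.97), no member was past it. Mmp14 was 1.91 times higher (1.83 to 1.99), Timp2 1.86 times (1.81 to 1.91) and Mmp2 1.76 times (1.70 to 1.83), all inside it. In the other direction Timp4 was 8.96 times lower in Cre cells (3.04 to 35.7), on 4 reads in Cre D7 and 22 in Vec D7, with a log2 difference of -0.86, and Mmp28 was 1.5 times lower (1.29 to 1.75). Of 25 members 18 were above 0, with a median of 0.45, against 53.5% and 0.03 over all genes. At the same time all 8 adipocyte genes were past the limit and lower in Cre cells and 3 of 9 preadipocyte or fibroblast genes were higher, and their part in these values was not tested.

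**Figure D4:**
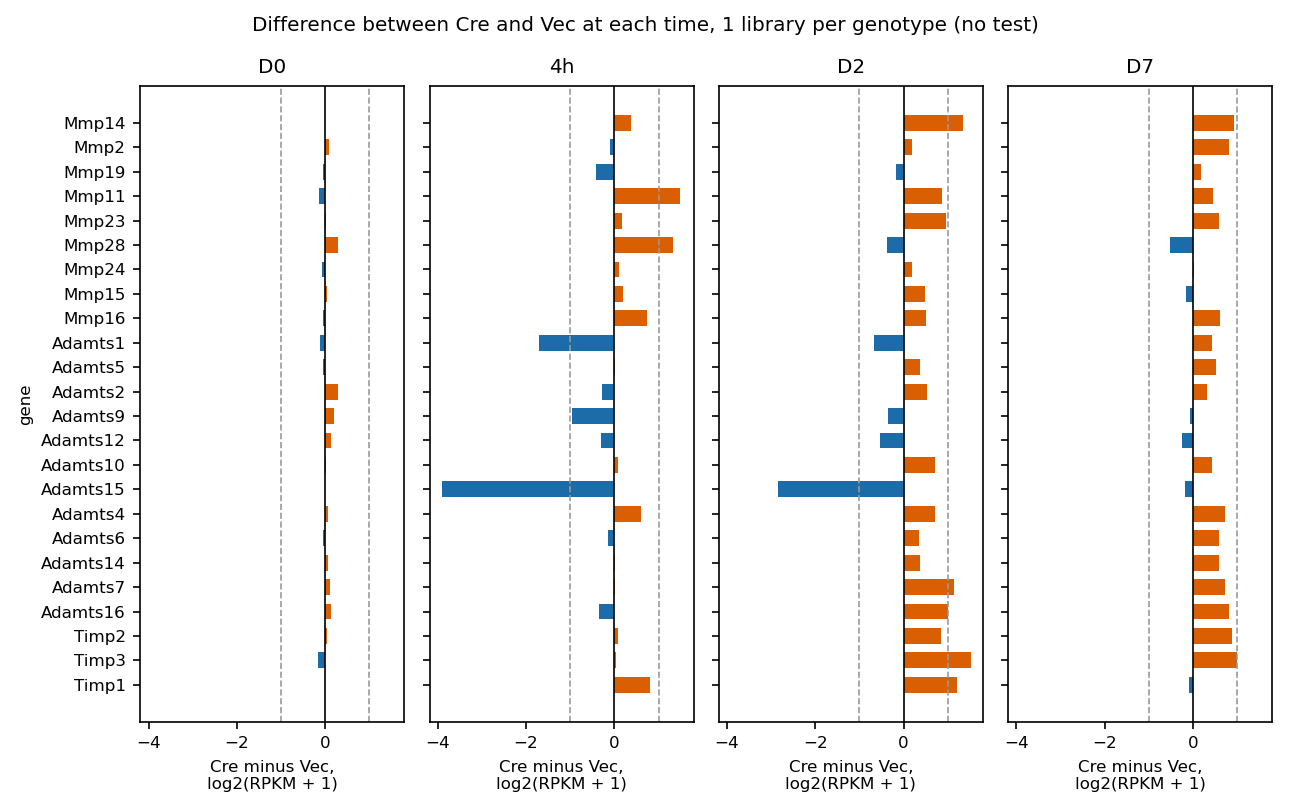
Difference in log2(RPKM + 1), Cre minus Vec, for each tested member at D0, 4h, D2 and D7, with lines at the size limit of 1 in either direction. All members lie between -0.15 and 0.30 at D0, Adamts15 is at -3.91 at 4h and -2.84 at D2, and Timp3 is at 1.52 at D2 and 1.00 at D7.

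The proteases that feed into this system, their other inhibitors and their substrates were read in 7 further lists with 35 tested genes. Of these 7 passed at 4h, 14 at D2 and 7 at D7, which is 20%, 40% and 20%, against 25.3%, 38.7% and 8.09% of all genes. The share was under that of all genes at 4h, close to it at D2 and above it at D7. In the plasminogen system, whose plasmin activates several MMP precursors, 4 genes were tested and at D2 3 fell and 1 rose. The activator Plau fell by 3.05 (adjusted p = 0.00216), its receptor Plaur by 2.82 (adjusted p = 0.00258) and the activator Plat by 2.00 (adjusted p = 0.0204), while Serpine2 rose by 0.91 (adjusted p = 0.0408). At 4h Plaur fell by 1.06 (adjusted p = 0.0273). Plg, plasminogen itself, was listed at 0 throughout. Among convertases and procollagen C-proteinases 7 were tested. Tll1, a procollagen C-proteinase, stood at D0, 4h, D2 and D7 at 3.65, 43.6, 2.84 and 1.81 RPKM in Cre cells, against 3.6, 31.5, 3.82 and 1.6 RPKM in Vec cells. It rose by 3.46 at 4h (adjusted p = 0.00399) in a short peak shared by both genotypes, and fell by 0.99 at D7 (adjusted p = 0.0402). The enhancers of that step, Pcolce and Pcolce2, fell at D2 by 0.91 and 1.76 (adjusted p = 0.0238 and 0.0045), and the convertase Pcsk6 rose at D7 by 1.81 (adjusted p = 0.0185). Furin was tested and did not pass at any time.

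Versican (Vcan), a substrate of several ADAMTS enzymes, Adamts1, Adamts5, Adamts9 and Adamts15 among them, was the only one of 6 ADAMTS substrates with enough reads. It stood at 149, 275, 224 and 69.5 RPKM in Cre cells, against 166, 417, 463 and 70.1 RPKM in Vec cells. It rose by 1.20 at 4h (adjusted p = 0.0295) and by 1.02 at D2 (adjusted p = 0.0331), and at D2 it was lower in Cre cells by 1.04 on the log2(RPKM + 1) scale. Of 4 ADAMTS-like genes tested, Adamtsl2 had 0.102, 0.68, 0.105 and 0.3 RPKM in Cre cells, against 0.197, 8.5, 1.66 and 0.142 RPKM in Vec cells. It rose by 4.65 at 4h (adjusted p = 0.039), and its 4h level was 2.50 lower in Cre cells on the log2(RPKM + 1) scale. That call was lost with limma on log2(RPKM + 1) or log2(RPKM + 5), and without the genotype term. Adamtsl3 and Adamtsl4 fell at D2 by 3.57 and 0.66 (adjusted p = 0.00327 and 0.0116), and Adamtsl1 rose at D7 by 2.16 (adjusted p = 0.0404). Of 7 ADAM genes tested, Adam12 and Adam23 rose at D2, by 2.44 and 0.46 (adjusted p = 0.00334 and 0.0348), and at D7, by 1.52 and 0.84 (adjusted p = 0.0297 and 0.0244), and Adam9 fell at D2 by 0.69 (adjusted p = 0.00726). Of 4 other inhibitors and clearance receptors, Cst3, cystatin C, rose at 4h by 0.85 (adjusted p = 0.0131) and at D7 by 1.33 (adjusted p = 0.00867), and Reck, a membrane inhibitor of MMPs, did not pass. Of 8 other matrix proteases, Ctsl rose at 4h by 1.12 (adjusted p = 0.0217) and Htra3 fell by 1.02 (adjusted p = 0.0473). At D2 Htra3 rose by 1.32 (adjusted p = 0.0137) and Ctsk, cathepsin K, fell by 1.56 (adjusted p = 0.0202), and at D7 Fap rose by 2.16 (adjusted p = 0.0382). Without Vec D0 none of the 7 calls at 4h, 5 of the 14 at D2 and none of the 7 at D7 in these lists passed. Those 5, Plau, Plaur, Pcolce2, Adamtsl3 and Adam12 at D2, passed without each of the 8 libraries. Between genotypes none of these genes was past the size limit at D0. Past it and higher in Cre cells, in log2(RPKM + 1), Cre minus Vec, were Adam19 (1.49) and Adamtsl3 (1.10) at 4h, Plat (1.75) and Htra1 (1.36), a secreted serine protease, at D2, and Serpine2 (1.11) and Ctsk (1.18) at D7. Past it and lower in Cre cells were Adamtsl2 at 4h (-2.50) and D2 (-1.27) and Vcan at D2 (-1.04). These are 3 of 35 genes at 4h, 4 of 33 at D2 and 2 of 35 at D7, or 8.57%, 12.1% and 5.71%, against 4.24%, 4.09% and 4.50% of all genes.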

How the data were processed

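RNA of 8 libraries, 1 per genotype and time, was analysed. Per the file headers, each deposited table gives a read count and an RPKM value per RefSeq accession. Per the submitters' processing notes, CASAVA 1.8.2 and the mouse build mm9 were used; no source used here names the aligner, the counter or its use of strand. Deposited counts entered the tests unchanged and deposited RPKM served for levels. Of 29082 accessions 97.8% matched a RefSeq symbol (GRCm38.p6), giving 23109 genes. Members with at least 1 RPKM in 2 libraries were tested with edgeR 4.0.16 (R 4.3.3), TMM scaling, time and genotype as additive terms and 3 residual degrees of freedom. Genotypes at 1 time were compared by size on log2(RPKM + 1), with exact binomial intervals. Alternatives were DESeq2 1.42.0, limma 3.58.1, other filters, pseudocounts and scalings, all accessions summed, no genotype term, and each library left out. Every tested member was named, every other by its highest count, and of related lists those that passed. One gene of these lists is not reported here and was left out of their counts. Members and lists were chosen with earlier results of these data known. The scripts were tested on simulated data.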

Additional observations from a re-analysis of the deposited data

Results flagged for a closer look

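10 responses to induction went opposite ways in the 2 genotypes, with counting intervals on either side of no change, so that the single Cre library and the single Vec library moved apart. With 1 library each, the difference between genotypes was not tested. Values are the change from D0 on the log2(RPKM + 1) scale, Cre minus Vec. At 4h they were -1.59 for Adamts1, which was higher than at D0 in Vec cells only, and 1.62 for Mmp11, 1.04 for Mmp28 and 0.79 for Mmp16, which were higher than at D0 in Cre cells only. At D7 they were 1.16 for Timp3, 0.73 for Mmp2, 0.70 for Adamts16, 0.58 for Mmp11, 0.53 for Adamts1 and 0.41 for Adamts10, each above D0 in Cre cells and below D0 in Vec cells. The response of Adamts1 at D7 in Cre cells was small, 1.05 times its D0 level. With RPKM rescaled by TMM 8 of the 10 stayed opposite, all but Adamts10 and Adamts16 at D7. By time these are 4 of the 24 tested members at 4h, 0 of 24 at D2 and 6 of 24 at D7. The shares are 16.7%, 0% and 25%, against 3.13%, 3.12% and 3.26% of all 12581 genes by the same rule on counting intervals. Such intervals narrow with more reads, so a well-read gene can pass this rule on a small shift. Members and all genes were not matched for read number.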

How the results depend on the processing

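No paired analysis was possible because each RNA group holds 1 library, so that no replicate number could be added as a block; the time and genotype terms already compare Cre with Vec within each time. No result reversed its direction under any alternative tried. The count of members changed at 4h was 4, 7 with DESeq2, and between 0 and 5 with single libraries left out. At D2 it was 16, and between 6 and 16 with single libraries left out. At D7 it was 3, against 5 with no filter, 1 with a filter of 5 RPKM, 6 with DESeq2, 1 without the genotype term, and between 0 and 2 with single libraries left out. For Cre against Vec over all times it was 0 under every alternative tried. The count past the size limit at D7 was 1, against 4 with a pseudocount of 0.1, 0 with a pseudocount of 5 and 0 after TMM rescaling. A pseudocount of 5 moved 7 of the 11 single differences past the limit by more than their counting error and brought 4 of the 11 inside it, and 0.1 moved 4 and brought 0 inside it. Under TMM rescaling the counts past the limit at 4h and D2 were both 5. Outside the left-out libraries, calls were lost most often without the genotype term (8), and Mmp11 at D2 under 5 alternatives. A fit that leaves out a library assumes that the lone library left at its time varies like the others. The causes were not tested. Depth limits what can be said of the 21 untested members, and intervals cover counting error only.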
